A study of Mus musculus with 68 samples.

Results

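The 35 ribosome biogenesis genes described here encode RNA polymerase I subunits, nucleolar RNA-protein particles and factors that process pre-ribosomal RNA into the small and large ribosomal subunits. They were taken by name from a list of pathway genes drawn up with earlier results of these data known, and all 35 were found among the 24059 genes of both deposited count tables. The libraries hold total RNA of mouse bone marrow erythroid populations that were enriched with a flow cytometer. The knockout series holds 30 libraries, 3 of GS-KO and 3 of WT in each of 5 gates: BFU-E and CFU-E, the progenitors, and ERY-I-II (source name ProE/BasoE), ERY-III-VI (PolyE/OrthoE) and ERY-V-VI (Retic/RBC). The stage series holds 38 libraries: 3 of BFU-E, 5 of CFU-E, 7 of ERY-I (source name ProE), 4 of ERY-II (BasoE), 4 of ERY-III (PolyE), 4 of ERY-IV (OrthoE), 7 of ERY-V (Retic) and 4 of ERY-VI (RBC). The labels give no genotype for the stage series and no strain, age, sex, Cre driver or pooling for any library. They do not spell out GS; Glul, which encodes glutamine synthetase, was checked as the gene lost.

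A ribosome is assembled in the nucleolus, where RNA polymerase I transcribes the pre-ribosomal RNA. Box C/D particles methylate that RNA, H/ACA particles convert uridines to pseudouridine, and nucleases, helicases and GTPases cut and fold it around ribosomal proteins. The pathway is costly and is most active in growing, dividing cells; the transcription factor MYC is a known activator of many of its genes, and erythroblasts are known to lose nucleoli as they mature.

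Each stage-series library held 1630863 to 11472763 counts, and each knockout-series library 3131142 to 15806844. In the stage series 12 libraries carried transcripts of Y-linked genes and 26 carried Xist, so animals of both sexes are present; the first kind were replicates 1 to 3 of ERY-V, ERY-I, CFU-E and BFU-E. All 30 knockout-series libraries carried Y-linked transcripts. The 2 kinds stood apart within a gate, so the counts of called members are also given within 1 kind wherever both gates of a step hold it. Nothing in the labels says whether replicates came from separate animals, so the p-values measure only how far these libraries vary, possibly for technical reasons. The globin genes took 0.00276 to 0.00998% of counts in BFU-E and 57.2 to 71.1% in ERY-VI. Levels below are in counts per 1e+06 of the library total (CPM), whereas log2 fold changes come from edgeR's quasi-likelihood fit after TMM scaling, which adjusts for such abundant genes. A fold change can therefore be smaller or larger than the ratio of the CPM values. In bulk RNA, fewer cells of a type and less RNA per cell cannot be told apart.

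Promoter sequences are shown first, because the members fell together along maturation and the letters around their start sites can be compared. RefSeq windows on GRCm38.p6, running from 250 bases before to 50 after the start, were found for 30 of the 35 genes. The E-box CACGTG, a palindrome that MYC and related factors are known to bind, was searched on both strands and stood in 5 of 30 (16.7%), against 8.09% of 27025 genes with a window and 12.5% of 7926 windowed genes tested in ERY-I against CFU-E. Counted from the start site, the E-box begins at base -60 in Nop2, before the start. In Pes1, Wdr43, Tsr1 and Utp20 it begins after the start, at bases 2, 17, 24 and 37. These 5 windows are shown 5′ to 3′ on the gene's strand, with the E-box in capitals.
Nop2, chr6:125131633-125131932, plus strand: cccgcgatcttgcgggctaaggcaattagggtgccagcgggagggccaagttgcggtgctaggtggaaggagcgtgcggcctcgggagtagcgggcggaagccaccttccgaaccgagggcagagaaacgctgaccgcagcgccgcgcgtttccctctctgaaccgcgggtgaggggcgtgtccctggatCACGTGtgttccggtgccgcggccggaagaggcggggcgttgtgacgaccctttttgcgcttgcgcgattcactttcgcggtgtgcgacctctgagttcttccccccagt
Utp20, chr10:88826765-88827064, minus strand: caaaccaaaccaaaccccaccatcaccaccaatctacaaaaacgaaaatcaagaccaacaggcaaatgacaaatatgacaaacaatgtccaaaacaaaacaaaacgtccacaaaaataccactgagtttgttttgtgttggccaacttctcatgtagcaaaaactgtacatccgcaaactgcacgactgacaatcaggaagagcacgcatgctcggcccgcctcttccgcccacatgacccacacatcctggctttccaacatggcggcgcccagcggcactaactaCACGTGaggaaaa
Pes1, chr11:3963725-3964024, plus strand: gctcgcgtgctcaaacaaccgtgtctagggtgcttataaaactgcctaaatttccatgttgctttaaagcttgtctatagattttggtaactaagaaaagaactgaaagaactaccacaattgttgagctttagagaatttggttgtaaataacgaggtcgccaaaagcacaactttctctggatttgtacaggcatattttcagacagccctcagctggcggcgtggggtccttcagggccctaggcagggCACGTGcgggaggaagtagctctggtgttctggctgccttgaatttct
Tsr1, chr11:74897830-74898129, plus strand: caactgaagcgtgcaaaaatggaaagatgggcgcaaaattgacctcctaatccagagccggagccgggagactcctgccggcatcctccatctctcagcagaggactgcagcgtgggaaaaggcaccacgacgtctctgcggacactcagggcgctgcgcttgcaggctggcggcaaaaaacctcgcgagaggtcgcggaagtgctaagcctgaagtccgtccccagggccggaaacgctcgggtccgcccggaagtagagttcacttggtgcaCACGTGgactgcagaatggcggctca
Wdr43, chr17:71615965-71616264, plus strand: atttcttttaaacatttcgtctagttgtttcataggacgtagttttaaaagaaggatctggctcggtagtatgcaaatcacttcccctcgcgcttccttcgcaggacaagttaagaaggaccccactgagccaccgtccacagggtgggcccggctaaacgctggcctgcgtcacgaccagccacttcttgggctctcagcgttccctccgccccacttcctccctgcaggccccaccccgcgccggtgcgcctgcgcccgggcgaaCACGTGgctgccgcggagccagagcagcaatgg

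The ETS-family motif ACTTCCGG, or CCGGAAGT on the other strand, stood in 8 of the 30 windows (26.7%). It stood in 4.31% of all genes with a window and 10.5% of the tested genes with a window. The matches are shown in capitals with up to 20 bases on either side, because this motif stood in more of the members' windows than the E-box. They begin between base -103 (Nip7) and base -1 (Tsr1), counted from the start site. In a second Noc2l window, with another start site, the match begins at base 3.
Polr1c, chr17:46248060-46248107, minus strand: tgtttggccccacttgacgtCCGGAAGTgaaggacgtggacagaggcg
Gar1, chr3:129831413-129831460, minus strand: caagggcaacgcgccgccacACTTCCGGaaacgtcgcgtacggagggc
Nhp2, chr11:51619730-51619777, plus strand: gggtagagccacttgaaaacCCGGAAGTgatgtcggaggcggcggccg
Heatr1, chr13:12395339-12395386, plus strand: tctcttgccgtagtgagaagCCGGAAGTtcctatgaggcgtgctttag
Tsr1, chr11:74898059-74898106, plus strand: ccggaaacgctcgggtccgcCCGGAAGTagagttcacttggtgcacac
Ebna1bp2, chr4:118620776-118620823, plus strand: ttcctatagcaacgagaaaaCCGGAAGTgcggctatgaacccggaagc
Noc2l, chr4:156235993-156236040, plus strand: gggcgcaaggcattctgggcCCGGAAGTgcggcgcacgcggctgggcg
Nip7, chr8:107056754-107056801, plus strand: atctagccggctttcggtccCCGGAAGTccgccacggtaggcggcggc
The Tsr1 window held both motifs, and no other member did. The motif of NRF1 was also searched and stood in 0 of the 30 windows. It stood in 1.07% of all genes with a window and 2.71% of the tested genes with a window. A match is a description of the letters, and binding was not measured here.

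**Figure D1:**
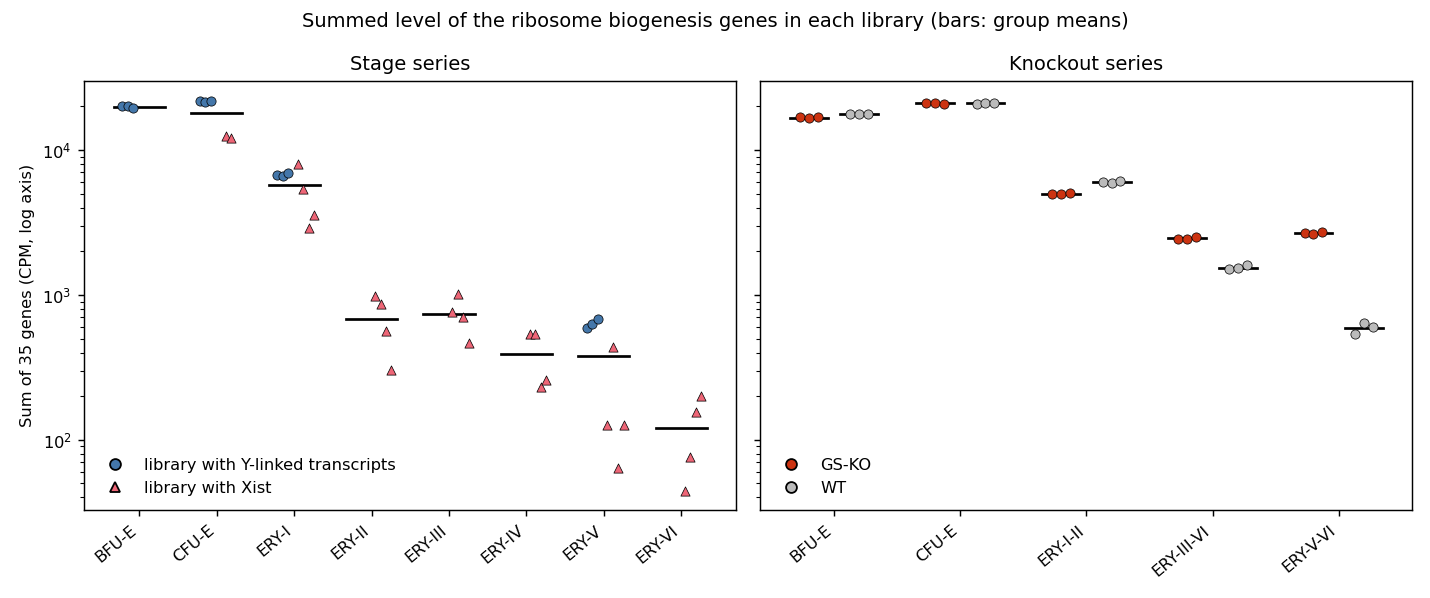
Summed level of the 35 genes in each library (CPM, log axis), by population, in the stage series (left; circles have Y-linked transcripts, triangles have Xist) and the knockout series (right; GS-KO in red, left of WT in grey). Bars are group means; the sum drops between CFU-E and ERY-II, and the 3 GS-KO libraries of ERY-III-VI and of ERY-V-VI all lie above the 3 WT libraries.

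The summed level of the 35 genes was highest in the progenitors and dropped in ERY-I and again in ERY-II. It averaged 19841 ± 417 CPM in BFU-E (SD, n = 3), 17964 ± 5145 in CFU-E (n = 5), 5728 ± 1888 in ERY-I (n = 7), 679.9 ± 305 in ERY-II (n = 4), 738 ± 227 in ERY-III (n = 4), 392 ± 170.4 in ERY-IV (n = 4), 379 ± 267 in ERY-V (n = 7) and 119.9 ± 72.2 in ERY-VI (n = 4). The wide SD in CFU-E came with the kind of library: the 2 with Xist summed to 12092 and 12572 CPM, and the 3 with Y-linked transcripts to 21589 to 21939 CPM. Ncl, the nucleolar RNA-binding protein nucleolin, made up 43.7 to 45.0% of the sum in BFU-E. Per kilobase of annotated exon, Npm1 (the nucleolar chaperone nucleophosmin) stood highest in CFU-E at 1015 CPM per kb, before Ncl at 686; Rrp1b, a large-subunit processing factor, stood lowest at 13.0 and Wdr12, of the same pathway branch, next at 15.7. Npm1 was highest and Rrp1b lowest in either kind of CFU-E library, while Ncl stood at 932 CPM per kb in the Y-linked libraries and 317 in the 2 with Xist.

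CFU-E against BFU-E. With all libraries, 3 of 35 members were higher in CFU-E (adjusted p under 0.05 in edgeR's quasi-likelihood test, Benjamini-Hochberg over all genes tested), against 18.2% of all 10807 genes, and 0 were lower by edgeR or DESeq2, against 19.1%; 8 had an unadjusted p under 0.05, all of them higher. Among Y-linked libraries alone 23 were higher and 2 lower, against 33% and 34.5% of all genes. Nhp2, an H/ACA particle protein, had 180.5, 183, 176, 339.7 and 316 CPM in CFU-E, against 108, 112 and 121 CPM in BFU-E (log2 fold change 1.23 ± 0.30, adjusted p = 0.0129). Its last 2 CFU-E values are the libraries with Xist, and they are the highest. Bysl, the small-subunit factor bystin, was also higher (log2 fold change 0.43 ± 0.10, adjusted p = 0.00924), as was Npm1 (log2 fold change 0.38 ± 0.12, adjusted p = 0.042). These calls rest on single libraries: 0 members passed without BFU-E replicate 1 or 2 or with each Y-linked triplicate summed to 1 library, and Npm1 did not pass without CFU-E replicate 1, 2 or 3 or BFU-E replicate 1, 2 or 3 (adjusted p 0.0715 to 0.135). Ncl was lowest in the Xist libraries, with 9646, 9416, 9418, 3111 and 3342 CPM in CFU-E, against 9010.0, 9055 and 8457 CPM in BFU-E (log2 fold change -0.23 ± 0.38, adjusted p = 0.643). For the other 8 landmark members the fit gave log2 fold changes between -0.24 and 0.32, and none passed. Scaled by library totals, 13.3% of all genes were higher and 22.1% lower, and 1 member was higher.

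The knockout series held this step in WT cells with less spread. The coefficient of variation between replicates beyond counting was 0.0263 in WT BFU-E and 0.0212 in WT CFU-E. It was 0.0209 in the Y-linked and 0.198 in the Xist CFU-E libraries. Whether these triplicates are separate animals is not given, so their small p-values measure only the spread of these libraries. Summing the Y-linked stage triplicates left 0 members called, against 0.252% of all genes higher and 0.601% lower. In the knockout series, where triplicates were not summed, 24 of 35 members were higher in WT CFU-E, against 34.5% of all genes. In the same fit 1 was lower, against 36%. Nhp2 rose most (log2 fold change 0.57 ± 0.04, adjusted p = 3.09e-25), then Nolc1, a chaperone of nucleolar particles (log2 fold change 0.47 ± 0.02, adjusted p = 1.38e-34). Ncl had 8704, 8829.6 and 8841 CPM in WT CFU-E, against 6879.8, 6867 and 6979.6 CPM in WT BFU-E (log2 fold change 0.45 ± 0.01, adjusted p = 1e-49), so here the CFU-E libraries were all higher. Npm1 rose by a log2 fold change of 0.40 ± 0.02 (adjusted p = 2.99e-38). All 5 of the nucleolar chaperone, helicase and GTPase group and 8 of 9 small-subunit factors rose, against 4 of 10 large-subunit factors. Nob1, the endonuclease that makes the mature end of the small-subunit rRNA, was the 1 that fell (log2 fold change -0.24 ± 0.06, adjusted p = 0.000649). With library totals, 18 members were higher and 7 lower, beside 26.4% and 44.3% of all genes, and Utp20, a scaffold of the small-subunit processome, changed sign (log2 fold change 0.10 ± 0.03 with TMM, -0.0079 with library totals). Without WT CFU-E replicate 1, or WT BFU-E replicate 2 or 3, 2 members were lower.

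ERY-I against CFU-E. All 35 members fell in ERY-I, the first gate of the erythroblast series, against 20.9% of all genes lower (16.2% higher and 33.2% lower with library totals). The median log2 fold change was -1.41 over the members and 0.05 over all 10460 genes tested. In Y-linked libraries alone all 35 were lower, against 38.1% of all genes; in the Xist libraries alone, 25 were, against 19.4%. The sum of 9 neutrophil markers was 13619 to 14004 CPM in the 3 Y-linked ERY-I libraries and 0.409 to 1260 CPM in the 4 with Xist, against 4.20 to 29.3 CPM in CFU-E; its part in the result was not tested.

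Among the RNA polymerase I subunits, Polr1a, the catalytic subunit, had 48.7 to 157 CPM with a median of 134 in ERY-I, against 355, 348, 359, 198 and 231 CPM in CFU-E (log2 fold change -1.04 ± 0.22, adjusted p = 0.00221). The groups did not overlap, and the 2 lowest CFU-E values were those of the Xist libraries. Polr1b, the other large subunit, fell further (log2 fold change -1.81 ± 0.28, adjusted p = 0.000277). In the box C/D particle, Fbl, the rRNA methyltransferase fibrillarin, had 17.1 to 73.0 CPM with a median of 54.5 in ERY-I, against 163, 154, 154, 129 and 131 CPM in CFU-E (log2 fold change -1.22 ± 0.20, adjusted p = 0.000498). Rrp9, a protein of the U3 particle, was among the 4 that fell most (log2 fold change -2.02 ± 0.37, adjusted p = 0.000888). Dkc1, the pseudouridine synthase of H/ACA particles, fell less than the member median (log2 fold change -0.88 ± 0.17, adjusted p = 0.00116).

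Of the nucleolar proteins, Ncl had 1297 to 3026 CPM with a median of 2802 in ERY-I, against 9646, 9416, 9418, 3111 and 3342 CPM in CFU-E (log2 fold change -1.19 ± 0.30, adjusted p = 0.00609). The groups did not overlap, but the 2 Xist libraries of CFU-E lay close to the highest ERY-I value. Npm1 had 302 to 1098 CPM with a median of 733 in ERY-I, against 2786, 2771, 2769, 2856 and 2345 CPM in CFU-E (log2 fold change -1.66 ± 0.20, adjusted p = 5.96e-05). Gnl3, the GTPase nucleostemin, fell as well (log2 fold change -1.79 ± 0.29, adjusted p = 0.000363). In the small-subunit branch all 9 factors fell, including Utp20 (log2 fold change -1.33 ± 0.27, adjusted p = 0.00154) and Nob1 (log2 fold change -1.41 ± 0.23, adjusted p = 0.000407). All 10 large-subunit factors fell, led by Wdr12, which forms a complex with Pes1 and Bop1: it had 9.02 to 55.2 CPM with a median of 43.0 in ERY-I, against 202, 197, 212, 165 and 164 CPM in CFU-E (log2 fold change -2.04 ± 0.28, adjusted p = 0.000153). Nop16 (log2 fold change -1.81 ± 0.25, adjusted p = 0.000133) and the rRNA methyltransferase Nop2 (log2 fold change -1.54 ± 0.24, adjusted p = 0.000276) followed. In the Xist libraries alone 4 landmarks did not pass: Ncl (log2 fold change -0.31, adjusted p = 0.353), Dkc1 (-0.39, adjusted p = 0.18), Polr1a (-0.82, adjusted p = 0.0702) and Utp20 (-0.96, adjusted p = 0.0617). With the Y-linked triplicates each summed to 1 library, 29 members were lower, against 13.5% of all genes. Ncl (-0.90, adjusted p = 0.103) and Dkc1 (-0.67, adjusted p = 0.0511) again did not pass.

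ERY-II against ERY-I. Of 35 members 33 fell again, against 25.1% of all genes lower and 20.2% higher, with a median log2 fold change of -2.32 over the members and -0.35 over all genes. The filter on low counts keeps a gene that is high enough in 1 of the 2 gates. Members kept only through ERY-I could therefore only be called lower. In ERY-III against ERY-II, 21 of the 35 passed the filter. With library totals the median of all genes moved to -1.68, with 4.1% higher and 67.8% lower, and that of the members to -3.59. All ERY-II libraries carry Xist; against the 4 Xist ERY-I libraries alone, 32 members fell, against 23.8% of all genes. The 4 largest drops were those of Rrs1, a large-subunit assembly factor (log2 fold change -3.38 ± 0.71, adjusted p = 0.00275), Nhp2 (log2 fold change -3.15 ± 0.39, adjusted p = 0.000127), Wdr75 of the small-subunit processome (log2 fold change -3.15 ± 0.34, adjusted p = 6.4e-05) and Rrp12, a small-subunit maturation factor (log2 fold change -3.09 ± 0.53, adjusted p = 0.000767).

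Npm1 had 92.8, 69.0, 43.3 and 21.1 CPM in ERY-II, against 302 to 1098 CPM with a median of 733 in ERY-I (log2 fold change -2.32 ± 0.29, adjusted p = 0.000118). Polr1a had 15.8, 14.0, 5.94 and 3.16 CPM in ERY-II, against 48.7 to 157 CPM with a median of 134 in ERY-I (log2 fold change -2.32 ± 0.34, adjusted p = 0.000299). Neither gene's groups overlapped. The landmarks Fbl, Gnl3 and Nob1 fell by similar amounts on the log2 scale (-2.50 ± 0.43, -2.53 ± 0.39 and -2.26 ± 0.40), while Ncl (-1.55 ± 0.22), Utp20 (-1.42 ± 0.40), Nop2 (-1.69 ± 0.37) and Wdr12 (-1.90 ± 0.41) fell less. Dkc1 moved least among the called landmarks, with 55.7, 44.1, 49.2 and 24.5 CPM in ERY-II, against 108 to 216 CPM with a median of 157 in ERY-I (log2 fold change -0.51 ± 0.16, adjusted p = 0.0196), and it did not pass without ERY-II replicate 2 or 4 (adjusted p 0.063 to 0.0638). The 2 members that did not pass were Rrp9 (adjusted p = 0.0987), whose ERY-II counts summed to 19, and Bysl (-0.44 ± 0.19, adjusted p = 0.0776). Both are named after their values were seen.

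Later gates. From ERY-III to ERY-VI few member reads were left, and 17 to 21 of the 35 members could be tested at each step. Summed member counts ran from 2113 to 4425 per ERY-III library and from 151 to 329 per ERY-VI library, where 8 to 19 of the 35 genes had any count. ERY-III against ERY-II tested 21 members and called none, against 0.185% of all genes higher and 0% lower. None had an unadjusted p under 0.05, and DESeq2 called 0 of the 5 it gave an adjusted p. These libraries pair on the replicate number. With that number as a block 0 of 21 were called, against 4.86% of all genes higher and 5.41% lower. ERY-IV against ERY-III called none of 19, against 10.3% higher and 3.29% lower (2.16% and 6.6% with library totals). In this step 2 had an unadjusted p under 0.05, and DESeq2 called 0. With the replicate number as a block, which these libraries pair on, 3 were lower, against 9.08% of all genes lower and 16.1% higher. Without ERY-IV replicate 2, 2 of 21 were lower, against 2.34% of all genes. ERY-V against ERY-IV called none of 18, against 6.49% higher and 2.33% lower (0.758% and 5.12% with library totals). Here 4 had an unadjusted p under 0.05, and DESeq2 called 3 higher, against 13.8% of all genes. Without ERY-V replicate 6, 1 of 19 was higher, against 8.09% of all genes. ERY-IV holds only Xist libraries, and with the Xist libraries of ERY-V alone 0 of 17 were called, against 5.04% of all genes higher and 1.54% lower. ERY-VI against ERY-V called none of 17, against 3.32% higher and 4.51% lower (0.139% and 44.0% with library totals); 1 had an unadjusted p under 0.05 and DESeq2 called 0. With Xist libraries alone only 5 members could be tested and 0 were called, against 1.52% higher and 0.349% lower.

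The most abundant members still show levels. Ncl had 289.9, 271, 89.9 and 112 CPM in ERY-IV, against 385, 535, 349.6 and 238 CPM in ERY-III (log2 fold change -0.47 ± 0.22, adjusted p = 0.186), with overlapping groups. Npm1 had 0, 13.2, 43.7 and 44.8 CPM in ERY-VI, against 2.98 to 75.6 CPM with a median of 44.0 in ERY-V. Dkc1 had 11.5, 13.2, 1.12 and 19.6 CPM in ERY-VI and 5.05 to 46.6 CPM with a median of 34.1 in ERY-V. In ERY-V the 3 Y-linked libraries held Polr1a at 23.3, 27.9 and 10.4 CPM and the 4 with Xist at 0.337 to 7.83 CPM, so the 3 Y-linked libraries all lay above the others. The same 3 libraries held 2759 to 2774 CPM of the 9 neutrophil markers, 42.6 to 48.2 CPM of the 7 progenitor markers and 159767 to 160454 CPM of the 10 erythroid markers. Of the 4 with Xist, replicate 5 held 3436 CPM of neutrophil, 36.2 CPM of progenitor and 315344 CPM of erythroid markers, and the other 3 held 1.51 to 117 CPM, 0 to 0.674 CPM and 398595 to 458219 CPM of these lists. The part of these markers in the difference was not tested.

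**Figure D2:**
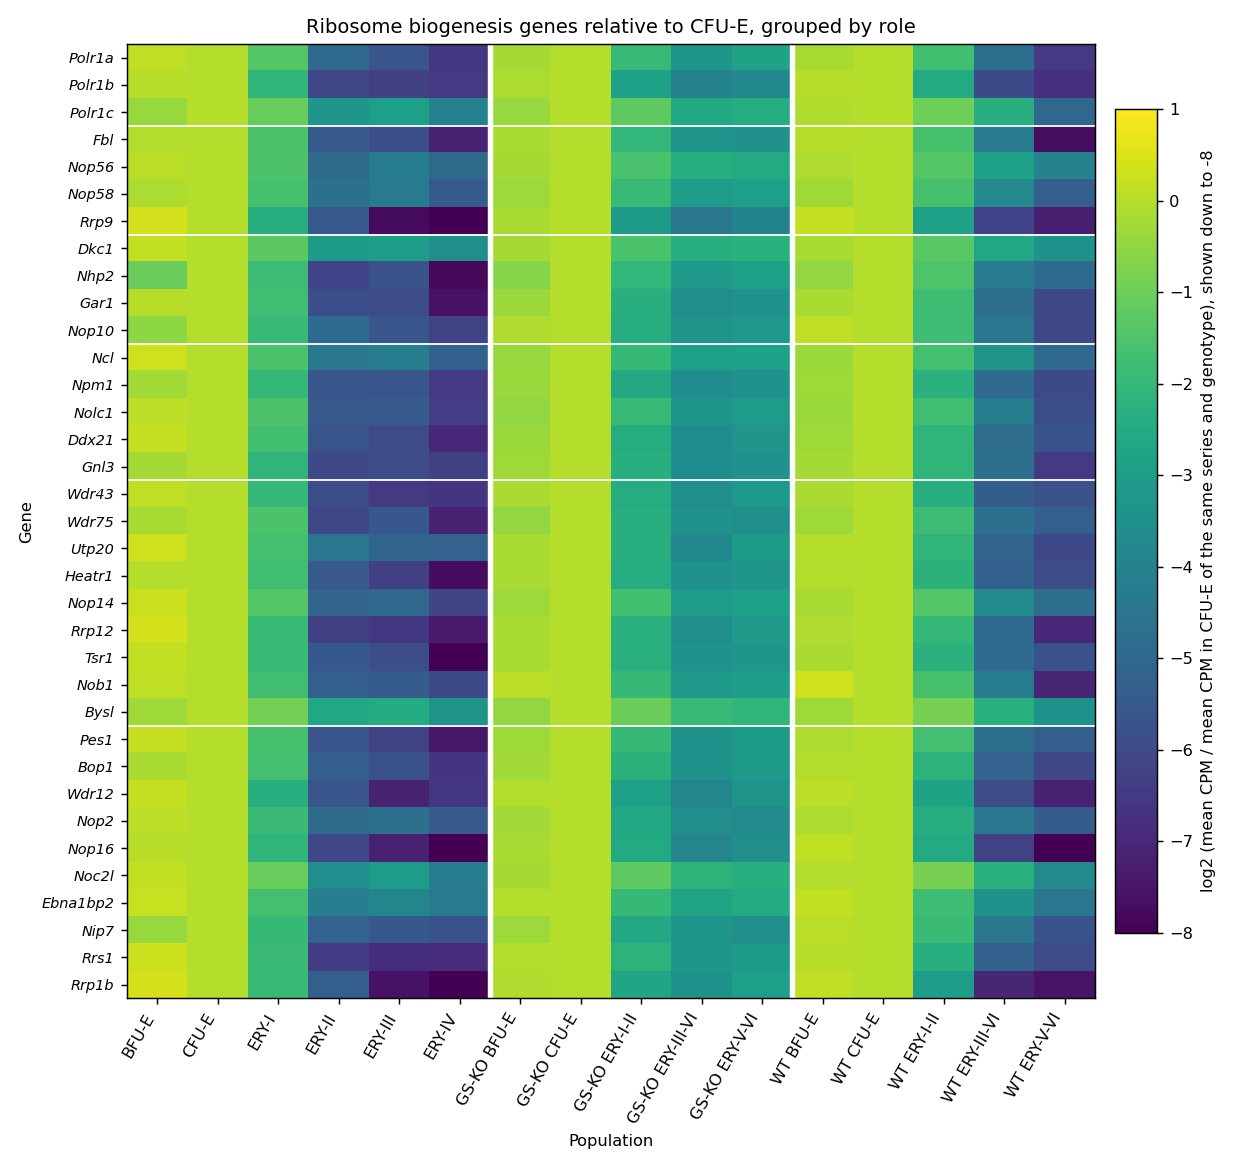
Level of each of the 35 genes relative to CFU-E, as log2 of mean CPM over the mean CPM in CFU-E of the same series and genotype (colour, clipped at the low end of the scale), by population, with genes grouped by role. Columns run through the stage series to ERY-IV, then GS-KO, then WT; Bysl, Dkc1, Polr1c and Noc2l stay lighter than other genes in ERY-II, and the GS-KO late gates are lighter than the WT late gates.

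The WT libraries of the knockout series gave the same steps with pooled gates. In WT ERY-I-II all 35 members were lower than in WT CFU-E, against 41.9% of all genes lower and 39.9% higher (24.1% higher and 60.9% lower with library totals), with a median log2 fold change of -1.41 over the members and -0.03 over all genes. Rrp1b (log2 fold change -2.52 ± 0.07, adjusted p = 6.53e-29), Rrp9 (log2 fold change -2.43 ± 0.09, adjusted p = 3.03e-25), Wdr12 (log2 fold change -2.33 ± 0.06, adjusted p = 2.01e-31) and Polr1b (log2 fold change -2.09 ± 0.07, adjusted p = 2.19e-26) fell most. Wdr12, Rrp9 and Polr1b are also among the 4 that fell most in ERY-I against CFU-E. Npm1 had 573, 556 and 559 CPM in WT ERY-I-II, against 2727, 2692 and 2714 CPM in WT CFU-E (log2 fold change -1.84 ± 0.02, adjusted p = 1.42e-43), a spread far below the difference.

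In WT ERY-III-VI all 35 fell once more relative to WT ERY-I-II, against 38.1% of all genes (14.3% higher and 69.6% lower with library totals), with a median log2 fold change of -1.95 over the members and -0.07 over all genes. Rrp1b had 1.56, 0.836 and 0.597 CPM in WT ERY-III-VI, against 14.9, 17.6 and 17.5 CPM in WT ERY-I-II (log2 fold change -3.22 ± 0.29, adjusted p = 6.89e-12). Nop16 (log2 fold change -3.06 ± 0.28, adjusted p = 1.99e-11), Polr1b (log2 fold change -2.80 ± 0.22, adjusted p = 2.89e-13) and Rrp9 (log2 fold change -2.61 ± 0.32, adjusted p = 1.04e-08) came next. A member as low in WT ERY-III-VI as Rrp1b passed the filter through WT ERY-I-II and could only come out lower. Dkc1 again fell least of the landmarks (log2 fold change -0.57 ± 0.06, adjusted p = 2.72e-10), and Ncl next least (log2 fold change -0.96 ± 0.03, adjusted p = 1.34e-25). From WT ERY-III-VI to WT ERY-V-VI only 2 of 30 tested members passed, both lower, against 12.9% of all genes lower: Fbl (log2 fold change -2.27 ± 0.64, adjusted p = 0.0151) and Ncl (log2 fold change -0.42 ± 0.07, adjusted p = 0.000309). This last step depends on the scaling, since library totals gave 17 lower, beside 5.02% of all genes higher and 67.8% lower. It also depends on single libraries: Fbl did not pass without WT ERY-III-VI replicate 1 (adjusted p = 0.14), 5 members were lower without WT ERY-V-VI replicate 2, and 1 was higher without WT ERY-V-VI replicate 1. Fbl had few reads in WT ERY-V-VI, at 0.494% of its WT CFU-E mean CPM. It passed the filter through WT ERY-III-VI and could only come out lower, so the size of its fold change is uncertain.

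Members differed in how much of their progenitor level was left. As a percentage of the CFU-E mean CPM, ERY-I kept a median of 29.9%, between 19.7% for Wdr12 and 54.9% for Bysl. ERY-II kept a median of 2.33%, between 1.15% for Rrs1 and 16.4% for Bysl. The CFU-E mean holds both kinds of library and all ERY-II libraries carry Xist. Against the 2 Xist CFU-E libraries alone the ERY-II median was 2.65%, between 0.994% for Nhp2 and 17.7% for Bysl, and 9 members moved by over 1.5 times, Ncl most (10.3%, beside 4.77% of the mean of all CFU-E libraries). Within 1 kind, ERY-I kept a median of 32.1% among Y-linked libraries and 32.0% among Xist libraries, where Ncl kept most (61.8%) and Rrp9 least (15.8%). WT ERY-III-VI kept a median of 3.78% of WT CFU-E, between 0.767% for Rrp1b and 20.3% for Noc2l. Ranked by this share, the top 8 members of ERY-II and of WT ERY-III-VI had 6 in common: Bysl, Dkc1, Polr1c (a subunit shared with RNA polymerase III), Noc2l and Ebna1bp2 (large-subunit branch) and Ncl. Across the 35 members the shares in ERY-II and WT ERY-III-VI had a Spearman correlation of 0.676 and a Pearson correlation of 0.749 on the log scale. With the Xist CFU-E base these were 0.588 and 0.662, and the top 8 had 7 in common, the same 6 and Nop14. These are descriptions across genes of 2 sets of libraries, and the genes share libraries, globin content and sequencing depth within each set.

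**Figure D3:**
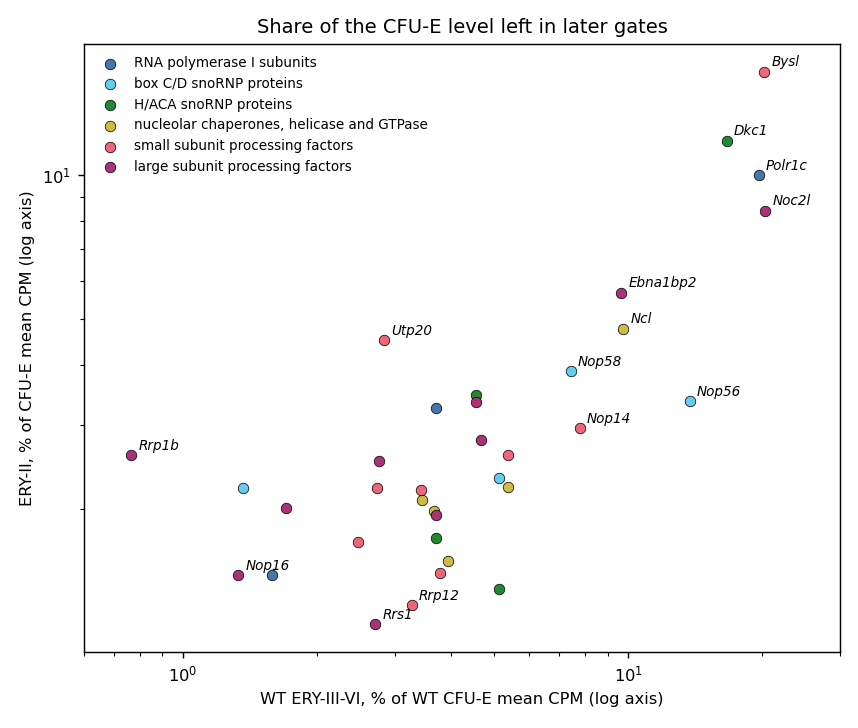
Share of the CFU-E mean CPM left in WT ERY-III-VI (horizontal, % of WT CFU-E) and in ERY-II (vertical, % of CFU-E), both log axes, 1 point per gene, coloured by role. Bysl, Dkc1, Polr1c and Noc2l lie at the upper right, with 8.41 to 16.4% left in ERY-II and 16.7 to 20.3% left in WT ERY-III-VI.

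For several of these genes the annotation places another gene on the opposite strand of the same exons (GENCODE M21 on GRCm38). Bysl (chr17:47599331-47611492, minus strand) shares 361 exon bases, 9.37% of its exon length, with Ccnd3, a cyclin that averaged 169.7 CPM in ERY-II, against 92.4 CPM in CFU-E. Noc2l (chr4:156236010-156247616, plus strand) shares 598 bases, 20.9%, with Samd11, which averaged 133 CPM in ERY-II, against 1.63 CPM in CFU-E. Dkc1 (chrX:75095854-75109777, plus strand) shares 45 bases, 1.09%, with Mpp1, an erythrocyte membrane protein gene at 846 CPM in ERY-II, against 148.6 CPM in CFU-E. The kit keeps strand, but the strand setting of the counting is not given in the sources used here, so reads of a member and of its antisense partner may not be told apart, and the part of the partners in these shares was not tested. Tsr1 also shares 1240 bases, 32.3%, with Srr, which was low in both gates (3.38 CPM in ERY-II, against 9.19 CPM in CFU-E), and Tsr1 kept 2.20% in ERY-II. In all 13 members share exon bases with another counted gene, and 7 members hold 21 snoRNA genes in their introns or exons on the same strand, with 5 in Nop56 and 4 in Nop58.

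The knockout was checked on Glul first. GS-KO libraries had 96.1, 99.7 and 101 CPM of Glul in BFU-E, against 121, 125 and 120.0 CPM in WT (log2 fold change -0.29 ± 0.05, adjusted p = 1.25e-05). In CFU-E the level was 34.7, 37.5 and 35.9 CPM in GS-KO, against 89.7, 84.2 and 84.2 CPM in WT (log2 fold change -1.26 ± 0.06, adjusted p = 3.92e-17). In ERY-I-II it was 16.6, 12.8 and 15.1 CPM in GS-KO, against 113, 104 and 113 CPM in WT (log2 fold change -2.77 ± 0.10, adjusted p = 1.94e-36). The loss was small in the earliest gate and grew along maturation. ERY-III-VI held 17.0, 18.1 and 22.5 CPM in GS-KO, against 152, 167 and 159 CPM in WT (log2 fold change -3.22 ± 0.09, adjusted p = 6e-37). ERY-V-VI held 22.3, 23.6 and 24.0 CPM in GS-KO, against 247, 268 and 246 CPM in WT (log2 fold change -4.73 ± 0.09, adjusted p = 1.63e-16). With TMM scaling this last drop is larger than the CPM values alone give.

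Markers of other cells also differed by genotype in these gates. The 9 neutrophil markers, all detected, summed to 7024 to 7102 CPM in GS-KO BFU-E, against 26.7 to 36.4 CPM in WT BFU-E. In CFU-E they summed to 4314 to 4388 CPM in GS-KO, against 25.9 to 29.0 CPM in WT, and in ERY-I-II to 6183 to 6284 CPM in GS-KO, against 108 to 116 CPM in WT. In ERY-III-VI they summed to 9923 to 10002 CPM in GS-KO, against 252 to 255 CPM in WT, and in ERY-V-VI to 13362 to 13528 CPM in GS-KO, against 608 to 654 CPM in WT. The 7 progenitor markers summed to 1219 to 1248 CPM in GS-KO BFU-E, against 1292 to 1305 CPM in WT. From CFU-E on they were higher in GS-KO. In CFU-E they summed to 606 to 628 CPM in GS-KO, against 518 to 531 CPM in WT. In ERY-I-II they summed to 67.1 to 74.1 CPM in GS-KO, against 12.9 to 14.4 CPM in WT. They summed to 99.7 to 101 CPM in GS-KO ERY-III-VI, against 4.66 to 5.57 CPM in WT, and to 138 to 144 CPM in GS-KO ERY-V-VI, against 6.31 to 12.8 CPM in WT, where Erg and Flt3 were at 0. The 10 detected of 11 monocyte and macrophage markers summed to 807 to 867 CPM in GS-KO ERY-V-VI, against 58.0 to 79.1 CPM in WT. Their sum was higher in GS-KO in every earlier gate too, at 401 to 414 CPM in BFU-E, against 9.08 to 9.69 CPM in WT. The 10 erythroid markers summed to 91371 to 92469 CPM in GS-KO ERY-V-VI, against 198475 to 201235 CPM in WT. In every earlier gate they were higher in GS-KO. They summed to 2602 to 2640 CPM in BFU-E, against 1695 to 1714 CPM in WT, and in CFU-E to 3163 to 3190, against 2701 to 2737 CPM. In ERY-I-II they summed to 43297 to 43524 CPM in GS-KO, against 26061 to 26137 CPM in WT. In ERY-III-VI they summed to 74603 to 76241 CPM in GS-KO, against 69990 to 70384 CPM in WT. The part of these cells in the results below was not tested.

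GS-KO BFU-E against WT BFU-E. Of the 35 members 24 were lower in GS-KO, against 8.59% of all genes, by small amounts: the median log2 fold change was -0.13 over the members and -0.01 over all genes, and the largest was that of Nhp2 (log2 fold change -0.27 ± 0.05, adjusted p = 4.43e-05). Bysl, Wdr75 and Wdr12 were next (-0.25 ± 0.05, -0.24 ± 0.05 and -0.22 ± 0.04). All 4 box C/D proteins passed, among them Fbl, which had 140.1, 139 and 135 CPM in GS-KO, against 165, 159 and 162 CPM in WT (log2 fold change -0.21 ± 0.04, adjusted p = 0.000162). Ncl, with 6930.4, 6879.6 and 6934 CPM in GS-KO, against 6879.8, 6867 and 6979.6 CPM in WT, did not pass (log2 fold change 0.01 ± 0.02, adjusted p = 0.573). Polr1a and Nop2 also did not pass. Of the landmarks that passed, Dkc1 did not with DESeq2 (adjusted p = 0.0953) or without GS-KO BFU-E replicate 1 or 3 or WT BFU-E replicate 1 or 2 (adjusted p 0.0744 to 0.134), nor did Nob1 without GS-KO BFU-E replicate 2 or WT BFU-E replicate 1 or 2 (adjusted p 0.0561 to 0.0667).

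GS-KO CFU-E against WT CFU-E. In this gate 6 members were lower, against 11.5% of all genes, and 3 higher, against 17.9% (5 and 4 with library totals), shares near the background. Those lower were led by Nhp2 (log2 fold change -0.12 ± 0.03, adjusted p = 0.0072) and Wdr43 of the small-subunit processome (log2 fold change -0.12 ± 0.02, adjusted p = 0.000497), followed by Wdr75 (-0.10 ± 0.04) and Nop58 (-0.10 ± 0.03). Those higher were Rrp9 (log2 fold change 0.14 ± 0.05, adjusted p = 0.0246), Bop1 (log2 fold change 0.13 ± 0.05, adjusted p = 0.0325) and Ncl (log2 fold change 0.05 ± 0.02, adjusted p = 0.026). No called change exceeded a log2 fold change of 0.14 in size, and the summed level was 21024 ± 192 CPM in GS-KO and 20988 ± 60.3 CPM in WT (SD, n = 3 each). These counts rest on single libraries: without GS-KO CFU-E replicate 3 there were 5 higher, without GS-KO CFU-E replicate 2 or WT CFU-E replicate 1 or 2 there was 1, without WT CFU-E replicate 3 there were 0, and without WT CFU-E replicate 2 only 3 were lower. With DESeq2, 1 was higher, and Rrp9, Bop1 and Wdr75 did not pass (adjusted p = 0.123, 0.142 and 0.16). Wdr75 did not pass with library totals either (adjusted p = 0.0633), nor Ncl with no filter on low counts (adjusted p = 0.142).

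GS-KO ERY-I-II against WT ERY-I-II. Here 15 members were lower, against 17.5% of all genes, and 1 was higher, against 22.9% (18.0% higher and 31.9% lower with library totals, and 24 members lower). All 4 H/ACA proteins and all 5 nucleolar chaperone, helicase and GTPase genes were lower. Nhp2 had 41.6, 49.5 and 39.5 CPM in GS-KO, against 70.0, 65.1 and 74.7 CPM in WT (log2 fold change -0.56 ± 0.09, adjusted p = 3.8e-07). Wdr75 followed (log2 fold change -0.47 ± 0.11, adjusted p = 0.000452), then the H/ACA proteins Nop10 (log2 fold change -0.39 ± 0.14, adjusted p = 0.0219) and Gar1 (log2 fold change -0.37 ± 0.14, adjusted p = 0.0233). Npm1 had 439, 454 and 442 CPM in GS-KO, against 573, 556 and 559 CPM in WT (log2 fold change -0.22 ± 0.03, adjusted p = 5.7e-10). The member that rose was Rrp1b (log2 fold change 0.42 ± 0.15, adjusted p = 0.0192), a call lost with library totals, with DESeq2 and without GS-KO ERY-I-II replicate 2 or 3 or WT ERY-I-II replicate 1 (adjusted p 0.0568 to 0.103). Nop10 did not pass without GS-KO ERY-I-II replicate 2 or 3 or WT ERY-I-II replicate 1 (adjusted p 0.0648 to 0.0784), Gar1 without GS-KO ERY-I-II replicate 1 or 2 or WT ERY-I-II replicate 3 (adjusted p 0.0604 to 0.184), Dkc1 without GS-KO ERY-I-II replicate 1 (adjusted p = 0.061) and Gnl3 without GS-KO ERY-I-II replicate 1, 2 or 3 or WT ERY-I-II replicate 1 (adjusted p 0.0558 to 0.218). DESeq2 also ended the calls of Nop10 (adjusted p = 0.0634), Gar1 (adjusted p = 0.0737) and Gnl3 (adjusted p = 0.0916). None of the 3 RNA polymerase I subunits passed, with 0 at an unadjusted p under 0.05 by edgeR.

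GS-KO ERY-III-VI against WT ERY-III-VI. The direction turned in this gate: 31 of 35 members were higher in GS-KO, against 31.4% of all genes higher (39.6% higher and 13.4% lower with library totals). The median log2 fold change was 1.05 over the members and 0.05 over all genes. Rrp1b was raised most, with 12.3, 13.1 and 12.6 CPM in GS-KO, against 1.56, 0.836 and 0.597 CPM in WT (log2 fold change 3.38 ± 0.32, adjusted p = 2.06e-13). Nop16 (log2 fold change 2.29 ± 0.40, adjusted p = 2.41e-06), Polr1b (log2 fold change 1.89 ± 0.30, adjusted p = 2.99e-07) and Rrs1 (log2 fold change 1.81 ± 0.25, adjusted p = 7.85e-09) came next. A member as low in WT as Rrp1b passed the filter through its GS-KO level and could only come out higher. The 31 members include such genes, and the size of their fold changes is uncertain.

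By role, 2 of 3 RNA polymerase I subunits, 4 of 4 box C/D proteins, 3 of 4 H/ACA proteins, 5 of 5 nucleolar chaperone, helicase and GTPase genes, 8 of 9 small-subunit factors and 9 of 10 large-subunit factors rose. Polr1a had 34.4, 37.3 and 36.6 CPM in GS-KO, against 10.3, 14.2 and 15.9 CPM in WT (log2 fold change 1.29 ± 0.15, adjusted p = 3.45e-11). Npm1 had 218, 218 and 206 CPM in GS-KO, against 86.9, 93.2 and 101 CPM in WT (log2 fold change 1.05 ± 0.06, adjusted p = 2.96e-23). Neither overlapped between genotypes. Smaller fold changes were those of Ncl (log2 fold change 0.33 ± 0.03, adjusted p = 3.29e-14), Fbl (log2 fold change 0.68 ± 0.21, adjusted p = 0.00559) and Nop2 (log2 fold change 0.70 ± 0.18, adjusted p = 0.000819). Gnl3 (0.83 ± 0.14), Nob1 (0.86 ± 0.33), Utp20 (1.20 ± 0.17) and Wdr12 (1.64 ± 0.25) rose as well on the log2 scale. Fbl did not pass without GS-KO ERY-III-VI replicate 3 or WT ERY-III-VI replicate 2 (adjusted p 0.0624 to 0.0946), nor did Nob1 with DESeq2 (adjusted p = 0.0708) or without GS-KO ERY-III-VI replicate 1 or 3 or WT ERY-III-VI replicate 2 or 3 (adjusted p 0.0584 to 0.164). The 4 members that did not pass were Dkc1, Bysl, Noc2l and Polr1c. Dkc1 had 80.2, 76.4 and 86.2 CPM in GS-KO, against 68.5, 71.1 and 73.6 CPM in WT (log2 fold change 0.03 ± 0.08, adjusted p = 0.745).

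GS-KO ERY-V-VI against WT ERY-V-VI. In the last gate 20 of 35 members were higher in GS-KO, against 22.4% of all genes, with a median log2 fold change of 1.30 over the members and 0.15 over all genes. Scaling mattered here: with library totals the median of all genes moved to 1.44, with 76.8% higher and 3.84% lower, and the median of the members to 2.60, with 35 higher. Nop16 passed (adjusted p = 0.00367) on 2 counts in all WT libraries together, too few for a fold change to be given. Rrp1b had 12.2, 22.1 and 19.2 CPM in GS-KO, against 0.234, 1.28 and 0.634 CPM in WT (log2 fold change 3.42 ± 0.61, adjusted p = 0.000283). Fbl had 9.45, 14.1 and 18.8 CPM in GS-KO, against 0.234, 1.28 and 0.846 CPM in WT (log2 fold change 2.92 ± 0.64, adjusted p = 0.00157). Both were never at 0 in WT but rest on few WT reads, so the size of these fold changes is uncertain. Members this low in WT passed the filter through their GS-KO level and could only come out higher. The 20 members include such genes. Npm1 had 246, 259 and 256 CPM in GS-KO, against 39.0, 44.4 and 46.3 CPM in WT (log2 fold change 1.26 ± 0.11, adjusted p = 6.41e-08). Polr1a (log2 fold change 2.41 ± 0.38, adjusted p = 7.85e-05) and Ncl (log2 fold change 0.86 ± 0.06, adjusted p = 1.27e-08) also rose, and Nob1 did (log2 fold change 2.66 ± 0.83, adjusted p = 0.017) on 6 WT counts but not without GS-KO ERY-V-VI replicate 2 or 3 (adjusted p 0.0707 to 0.104). Gnl3 (1.59 ± 0.39), Utp20 (1.63 ± 0.34) and Wdr12 (2.44 ± 0.59) passed too. Dkc1 (-0.20 ± 0.14, adjusted p = 0.266) and Nop2 (0.27 ± 0.42, adjusted p = 0.631) did not pass with TMM, although their CPM values did not overlap between genotypes and both were higher with library totals.

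**Figure D4:**
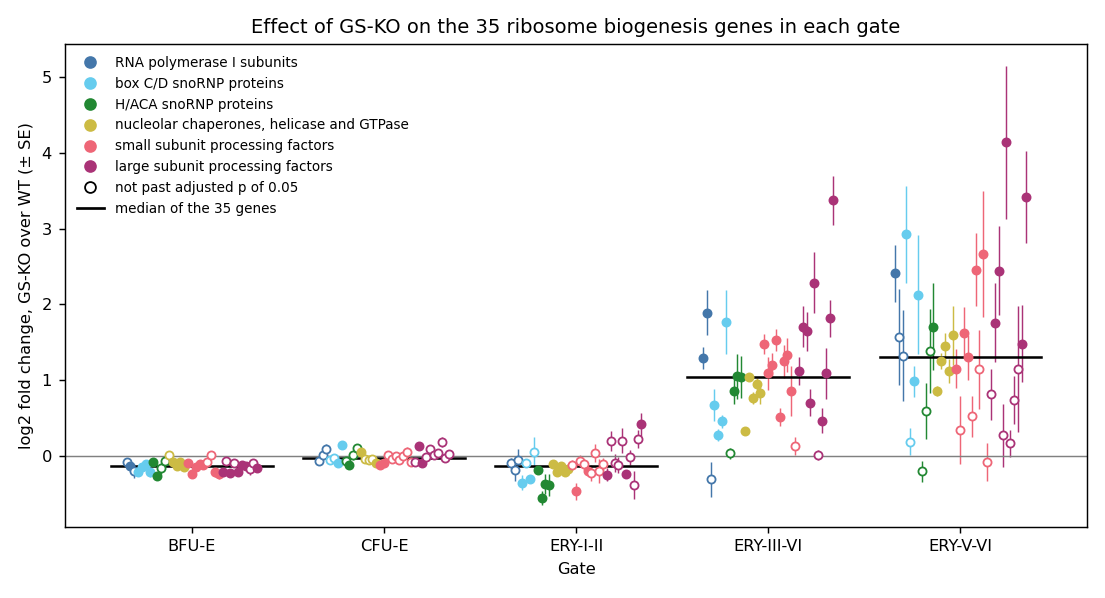
Log2 fold change of each of the 35 genes, GS-KO over WT (± SE), in the 5 gates, coloured by role; open circles did not pass an adjusted p of 0.05 and black bars are medians over the genes. The medians are -0.13, -0.02 and -0.14 in BFU-E, CFU-E and ERY-I-II, and 1.05 in ERY-III-VI and 1.30 in ERY-V-VI.

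The summed level shows the same turn. It was 16745 ± 100.2 CPM in GS-KO BFU-E and 17669 ± 141 in WT BFU-E, 4993 ± 44.3 in GS-KO ERY-I-II and 6015 ± 88.4 in WT ERY-I-II, 2451 ± 44.7 in GS-KO ERY-III-VI and 1541 ± 50.2 in WT ERY-III-VI, and 2683 ± 45.8 in GS-KO ERY-V-VI and 592 ± 51.3 in WT ERY-V-VI (SD, n = 3 each). Relative to GS-KO CFU-E, the GS-KO libraries kept a median of 9.73% of member levels in ERY-III-VI and 11.6% in ERY-V-VI, beside 3.78% and 1.74% in WT relative to WT CFU-E. Whether the genotype effect differed between gates was tested in 1 model over all 30 libraries: it differed for 33 of 35 members, against 61.2% of all genes. Npm1 (adjusted p = 2.1e-29), Ncl (adjusted p = 9.49e-22) and Polr1a (adjusted p = 4.11e-17) were among them, and the 2 that did not pass were Dkc1 (adjusted p = 0.459) and Bysl (adjusted p = 0.466), with edgeR's quasi-likelihood test. A p that misses the threshold does not show that their effects were alike.

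Other genes of the pathway were counted in the same comparisons. In ERY-I against CFU-E, 30 of 32 further small-subunit factors and 29 of 31 further large-subunit factors fell, against 20.9% of all genes lower and 25.4% higher. The lowest were the small-subunit factors Tsr2 (log2 fold change -1.97 ± 0.26, adjusted p = 0.000106) and Nat10 (log2 fold change -1.92 ± 0.31, adjusted p = 0.000414) and the large-subunit factors Nle1 (log2 fold change -1.82 ± 0.27, adjusted p = 0.000232) and Rrp15 (log2 fold change -1.72 ± 0.28, adjusted p = 0.000407). Of 10 RNA exosome subunits 8 fell, and of 6 late maturation and export factors 4 fell, against the same 20.9%. The median log2 fold changes were -1.17, -1.11, -0.74 and -0.64 in these 4 lists, against 0.05 over all genes. The remaining RNA polymerase I machinery was mixed, with 7 of 13 lower and 1 higher, against 20.9% and 25.4% of all genes. Baz2a, a subunit of a complex known to silence ribosomal RNA genes, was the one that rose, at 270.5 ± 67.0 CPM in ERY-I and 138 ± 50.5 CPM in CFU-E (SD, n = 7 and 5; log2 fold change 1.38 ± 0.27, adjusted p = 0.00132), and it rose in ERY-II over ERY-I too (log2 fold change 1.71 ± 0.26, adjusted p = 0.00035). Cd3eap, an RNA polymerase I subunit, fell in both steps (-1.73 ± 0.36 and -2.89 ± 0.93 on the log2 scale).

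In GS-KO ERY-III-VI, 19 of 32 further small-subunit and 24 of 31 further large-subunit factors were higher than in WT, with 2 of the large-subunit factors lower and medians of 0.43 and 0.76, against 0.05 over all genes, of which 31.4% were higher and 24.5% lower. Mdn1, an ATPase that remodels large-subunit precursors, had 49.8 ± 5.20 CPM in GS-KO and 13.1 ± 1.81 CPM in WT (SD, n = 3 each; log2 fold change 1.74 ± 0.13, adjusted p = 2.77e-17). Of 11 tested genes of the RNA polymerase I machinery, 4 were higher, led by Cd3eap (log2 fold change 4.02 ± 0.45, adjusted p = 3.31e-11), and 2 lower, Ubtf and Baz2a, both shares near the 31.4% and 24.5% of all genes. Of 10 RNA exosome subunits 1 was higher, and of 6 late maturation and export factors 1 was higher and 2 lower. In ERY-V-VI, 8 of 32 further small-subunit factors were higher and 1 lower, and 9 of 30 large-subunit factors were higher, against 22.4% of all genes higher and 20.5% lower, so the shares that were higher lie near that of all genes. These directions outside the 35 were read with TMM scaling and were not recomputed with library totals or within 1 kind of library.

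The level of Myc was 316, 326, 315, 214 and 173 CPM in CFU-E, against 636, 606 and 613 CPM in BFU-E (log2 fold change -1.08 ± 0.18, adjusted p = 0.00212), a step at which no member was called lower. It was 18.0 to 104 CPM with a median of 84.8 in ERY-I (log2 fold change -1.68 ± 0.33, adjusted p = 0.0013 against CFU-E), and 8.68, 5.51, 0.937 and 0.789 CPM in ERY-II (log2 fold change -2.91 ± 0.62, adjusted p = 0.00304 against ERY-I). In later gates it stayed low, at 2.37 ± 0.920 CPM in ERY-III (SD, n = 4), 1.63 ± 0.386 in ERY-IV (n = 4), 3.91 ± 5.06 in ERY-V (n = 7) and 1.04 ± 1.23 in ERY-VI (n = 4), and did not pass the filter on low counts. Mxd1, which encodes a known antagonist of MYC, rose meanwhile, at 376 ± 102 CPM in ERY-I and 32.5 ± 5.44 CPM in CFU-E (SD, n = 7 and 5; log2 fold change 3.93 ± 0.29, adjusted p = 4.73e-06).

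By genotype, Myc had 389, 378 and 387 CPM in GS-KO CFU-E, against 341, 321 and 339 CPM in WT CFU-E (log2 fold change 0.20 ± 0.03, adjusted p = 8.01e-07). In BFU-E it averaged 653 ± 6.77 CPM in GS-KO and 681 ± 1.89 CPM in WT, and in ERY-I-II 49.3 ± 4.31 CPM in GS-KO and 47.9 ± 0.974 CPM in WT (SD, n = 3 each); neither passed. In ERY-III-VI it had 25.7, 16.2 and 22.7 CPM in GS-KO, against 7.61, 5.97 and 6.17 CPM in WT (log2 fold change 1.55 ± 0.19, adjusted p = 6.61e-10). In ERY-V-VI it had 27.5, 23.3 and 24.0 CPM in GS-KO, against 3.97, 3.51 and 7.61 CPM in WT (log2 fold change 0.98 ± 0.37, adjusted p = 0.0417). Myc was thus higher in GS-KO in the 2 late gates in which members were higher and also in CFU-E. The neutrophil and progenitor markers given above were higher in GS-KO in these gates and in ERY-I-II, and their part was not tested.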

How the data were processed

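The authors deposited 2 tables of raw read counts per gene, 1 for the stage series and 1 for the knockout series. Libraries were made with Takara's SMARTer Pico kit, which keeps strand, per the labels. Reads were aligned with STAR 2.5.2b to mm10 and counted with HTSeq, per the submitters' processing notes; the sources used here give neither the gene annotation nor the strand setting of the counting. The 35 genes and all other gene lists were chosen with earlier results of these data known, so no list is independent evidence.

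From the deposited counts, each comparison was fitted on its own libraries with edgeR 4.0.16 in R 4.3.3, using TMM scaling, filterByExpr (minimum count 10, minimum total count 15) and the quasi-likelihood F test, with Benjamini-Hochberg adjustment over all genes tested and a threshold of 0.05. A gene under the filter was not tested. The genotype by gate interaction was fitted over all 30 knockout-series libraries. Standard errors come from the size of the fold change and its F statistic. CPM values are counts per 1e+06 of the library total. Named genes are 10 landmark members covering each role, the 4 called members with the largest fold change in each direction per comparison, the 2 called genes with the largest fold change per other list, Myc and Glul.

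Alternatives were RLE size factors, library totals, DESeq2 1.42.0, no filter, the replicate number as a block, each library left out, and, in the stage series, libraries with Y-linked transcripts or with Xist alone, the set as a term, and Y-linked triplicates summed to 1. The shares of the CFU-E level within 1 kind of library were an alternative chosen after seeing the data. Same-numbered libraries deviated together (every pair's correlation over 0.1) in ERY-I against CFU-E (0.316 to 0.435 over 5 pairs), ERY-III against ERY-II (0.597 to 0.775 over 4) and ERY-IV against ERY-III (0.334 to 0.608 over 4), and not in the other comparisons. In ERY-I against CFU-E the same-numbered libraries are also of the same kind, so number and kind cannot be told apart there. No pair of libraries of a group agreed within counting noise, so each was counted. The ratio of a pair's spread to counting noise ran from 1.25 in WT CFU-E to 69.7 in ERY-VI. Such a ratio does not tell separate animals from technical repeats. The fitting was tested on simulated counts. Depth was 1630863 to 11472763 counts per stage-series library and 3131142 to 15806844 per knockout-series library. Promoter windows come from RefSeq (GRCm38.p6) and exon positions from GENCODE M21.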

Additional observations from a re-analysis of the deposited data

Results flagged for a closer look

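In 8 of 76 groups of 4 to 7 libraries checked for the landmark genes and the summed level, 1 library stood far from the others of its group. The rate of about 1 in 20 by chance holds for normally spread values, and some of these groups lie near 0. Where the other libraries are all at 0, any count is flagged. The 8 of 76 therefore cannot be set against that rate. Fbl had 6.20 CPM in ERY-III replicate 2, beside 0.863 to 1.69 CPM in the others. In ERY-VI, where few member reads remain, Fbl had 3.92 CPM in replicate 3, Gnl3 1.42 CPM in replicate 2 and Wdr12 0.613 CPM in replicate 4, each beside 0 in the others. Also in ERY-VI, Utp20 had 5.30 CPM in replicate 1, beside 2.37 to 2.80 CPM, and Nop2 had 6.16 CPM in replicate 3, beside 0 to 0.473 CPM. Nob1 had 2.52 CPM in ERY-IV replicate 1, beside 0.251 to 0.585 CPM. Npm1 had 2345 CPM in CFU-E replicate 5, beside 2769 to 2856 CPM.

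The effect of genotype differed between the 5 gates for 33 of 35 members in the interaction test of edgeR's quasi-likelihood fit, against 61.2% of all genes. Among the landmark genes the adjusted p was 4.11e-17 for Polr1a, 1.46e-07 for Fbl, 9.49e-22 for Ncl, 2.1e-29 for Npm1, 3.07e-11 for Gnl3, 6.58e-12 for Utp20, 0.000207 for Nob1, 4.42e-11 for Wdr12 and 0.0107 for Nop2, and for these 9 the GS-KO fold change was larger in ERY-III-VI than in ERY-I-II. The neutrophil, monocyte and progenitor marker sums differed between genotypes as well, and their part in the interaction was not tested.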

How the results depend on the processing

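The falls in ERY-I and ERY-II, the WT steps to ERY-III-VI, and the higher levels in GS-KO ERY-III-VI kept their direction and stayed within 1.5 times their count under every alternative run. Leaving out 1 library gave 34 to 35 lower members in ERY-I against CFU-E, against 18.2 to 22.7% of all genes lower. ERY-II against ERY-I had 31 to 35 lower, against 18.7 to 25.6%. The lower members were 19 to 23 in GS-KO BFU-E and 12 to 15 in GS-KO ERY-I-II. The higher members were 27 to 31 in GS-KO ERY-III-VI and 15 to 23 in GS-KO ERY-V-VI. The interaction called 31 to 33. For CFU-E against BFU-E, 1 member was higher with library totals, 7 with DESeq2, 0 with the Y-linked triplicates summed, 0 to 4 with 1 library left out, and 23 with 2 lower both with Y-linked libraries only and with the replicate block, where the shared numbers were all Y-linked libraries. With the replicate block ERY-IV against ERY-III had 3 lower (9.08% of all genes lower) and ERY-V against ERY-IV 1 higher (7.96% of all genes higher). The block moved no other count by over 1.5 times. The libraries of ERY-II and ERY-I do not pair on their numbers, and with the block Dkc1 did not pass there (-0.43 on the log2 scale, adjusted p = 0.13); likewise Ncl and Wdr75 in GS-KO CFU-E (adjusted p = 0.0649 and 0.0672). DESeq2 gave 3 higher in ERY-V against ERY-IV (13.8% of all genes higher), 1 in GS-KO CFU-E and 0 in GS-KO ERY-I-II. Library totals gave 2 lower in ERY-VI against ERY-V, 0 higher and 24 lower in GS-KO ERY-I-II, 35 higher in GS-KO ERY-V-VI, 7 lower in WT CFU-E against WT BFU-E and 17 lower in WT ERY-V-VI against WT ERY-III-VI, where no filter gave 5. With 1 library left out, the lower members were 0 to 2 in ERY-IV against ERY-III, 3 to 7 in GS-KO CFU-E, 1 to 2 in WT CFU-E against WT BFU-E and 1 to 5 in WT ERY-V-VI against WT ERY-III-VI, and the higher were 0 to 1 in ERY-V against ERY-IV, 0 to 5 in GS-KO CFU-E, 0 to 1 in GS-KO ERY-I-II and 0 to 1 in WT ERY-V-VI against WT ERY-III-VI. The cause of these changes was not tested. Of the named genes' calls, Utp20 in WT CFU-E against WT BFU-E changed sign with library totals (-0.0079 on the log2 scale, adjusted p = 0.812); otherwise 662 of the recomputed values outside left-out libraries kept their side of the threshold and 28 lost it, and 819 kept and 61 lost it with 1 library left out. Few member reads limit the gates from ERY-III to ERY-VI, where 17 to 21 of the 35 members could be tested.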

Other observations

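Proteins of the same snoRNA-guided particle kept different shares of their progenitor level. Of the H/ACA proteins, Dkc1 kept 11.8% of its CFU-E level in ERY-II, against 1.36% for Nhp2, 1.74% for Gar1 and 3.47% for Nop10. Against the 2 Xist CFU-E libraries alone these shares were 16.3% for Dkc1, 0.994% for Nhp2, 2.87% for Gar1 and 2.62% for Nop10. Of the box C/D proteins, Nop56 kept 13.8% of its WT CFU-E level in WT ERY-III-VI and Nop58 7.44%, against 5.14% for Fbl and 1.36% for Rrp9. These shares are descriptions, with no test of the differences between genes.

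Mxd1, which encodes an antagonist of MYC, differed by genotype already in the first gate, with 82.8 ± 2.98 CPM in GS-KO BFU-E and 27.9 ± 2.57 CPM in WT BFU-E (SD, n = 3 each; log2 fold change 1.58 ± 0.08, adjusted p = 7.41e-23 in edgeR's quasi-likelihood test). In ERY-V-VI it was lower in GS-KO, with 886 ± 6.99 CPM in GS-KO and 1304 ± 14.8 CPM in WT (log2 fold change -1.85 ± 0.04, adjusted p = 2.23e-16). With TMM scaling this drop is larger than the CPM values alone give. The neutrophil marker sum was higher in GS-KO in both gates, and its part was not tested.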
